A study of Mus musculus with 6 samples.

Results

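The 10 genes described here mark the crypt base stem cells of the small intestine. They are Lgr5, Olfm4, Ascl2, Smoc2, Axin2, Tnfrsf19, Cdca7, Slc12a2, Rnf43 and Prom1, chosen by name from general knowledge of the crypt and found by Ensembl identifier among 55414 genes. They were read in RNA from sorted Paneth cells (PCs), the secretory neighbours of these stem cells. Small intestinal PCs had been collected from C57BL/6J mice 15 h after an injection of phosphate-buffered saline (PBS, 3 mice) or tumour necrosis factor (TNF, 3 mice). All 6 mice, controls included, carried a labelled knockout of Ifnar1, which encodes part of the receptor for type I interferons, so no wild-type animal enters any comparison. Each library came from a different mouse. The labels give no dose, sex, age or batch.

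Crypt base stem cells divide continuously and are kept in that state by Wnt signals, which PCs and the underlying stroma supply, and by Notch signals passed through contact with PCs. LGR5 and RNF43 sit on opposite sides of the Wnt receptor complex, since LGR5 binds R-spondins and RNF43 removes Frizzled receptors from the surface. AXIN2 dampens the same pathway from inside the cell, and ASCL2 is the transcription factor through which Wnt input maintains stem cell identity.

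Total counts were 12747484 to 17039511 per library. As labelled PCs, the libraries were rich in PC transcripts. The 16 PC markers summed to 424550 to 524712 CPM in PBS and 323333 to 690698 CPM in TNF. CPM are counts relative to library sizes scaled by the trimmed mean of M-values, so they are not shares of a library. The scaling factor was lowest in TNF replicate 1 (0.798), which had the highest sum. It was highest in TNF replicate 2 (1.20), which had the lowest, so part of the TNF spread comes from scaling. Most lymphocyte, plasma cell, stromal and red cell genes were close to absent. The exceptions among the 12 immune genes were Ptprc and Lyz2. Ptprc, which encodes CD45, had 3.90 to 33.9 CPM in PBS and 8.86 to 22.7 CPM in TNF. Lyz2 had 13.1 to 27.6 CPM over all libraries. Cd8a, Cd4, Jchain, Nkg7, Col1a2, Dcn, Cdh5, Hba-a1 and Hbb-bs had no count in any library. A count of 0 allows up to 0.235 CPM on unscaled library size at the lowest depth. Ifnar1 itself was counted at 5.18 to 12.7 CPM, which checks nothing about the knockout because there was no wild-type library and exons outside the disrupted part may be counted too. TNF replicate 1 stood apart from its group. Across genes, its log2 CPM correlated at 0.937 to 0.945 with the PBS libraries and at 0.883 to 0.884 with TNF replicates 2 and 3. It was kept under its TNF label, and the fold changes of the 10 genes are also given without it. Values set out in threes follow the order of replicates 1, 2 and 3.

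All 10 stem cell genes were detected in all 6 libraries and all passed the filter on low counts. In the PBS libraries, levels scaled for exon length (TPM, counts per length of all annotated exons, rescaled to a fixed total) ran from Olfm4 at 795 ± 76.3 TPM (SD, n = 3) down to Tnfrsf19 at 1.57 ± 0.504 TPM. Between them lay Slc12a2 (37.7 ± 3.64 TPM), Prom1 (22.9 ± 3.69 TPM), Smoc2 (14.8 ± 0.638 TPM), Cdca7 (10.7 ± 1.50 TPM), Axin2 (8.38 ± 1.55 TPM), Rnf43 (8.26 ± 1.78 TPM), Lgr5 (7.19 ± 1.90 TPM) and Ascl2 (5.01 ± 1.66 TPM). The values of Cdca7, Axin2, Rnf43, Lgr5 and Ascl2 overlapped from each gene to the next, so their ranges do not set the order of neighbours. Genes further apart in this run did not all overlap. Cdca7 (9.24 to 12.2 TPM) lay above Lgr5 (5.03 to 8.59 TPM) and Ascl2 (3.49 to 6.78 TPM). All annotated exons of a gene together can be longer than the transcript it makes. Levels compared between genes therefore also depend on the annotation (10264 bases for Lgr5, 2984 for Olfm4). Lyz1, the lysozyme of PC granules, averaged 150867 TPM over the 6 libraries. In bulk RNA, fewer cells of a type and less RNA per cell cannot be told apart, so none of these levels says how many stem cells, or PCs with stem cell transcripts, were sorted.

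Promoter sequences are shown for Olfm4, whose level differed most between libraries, and for Lgr5, the gene that defines these cells. Each run is the 250 bases before the start of the gene's canonical GENCODE transcript on GRCm39, 5′ to 3′ on the gene's strand. The Olfm4 window is chr14:80237441-80237690 on the plus strand, and its capitals mark a CTTTGAT, a core site of the TCF/LEF factors that carry Wnt signals. It lies inside the annotated Olfm4 gene, whose outermost start is at 80221521, because the canonical transcript starts further in. The windows of Axin2, Rnf43, Tnfrsf19 and Prom1 likewise lie wholly or partly inside their annotated genes. The Lgr5 window is chr10:115423686-115423935 on the minus strand, and its capitals mark a match to the NF-kB consensus, which reads on both strands.
Olfm4: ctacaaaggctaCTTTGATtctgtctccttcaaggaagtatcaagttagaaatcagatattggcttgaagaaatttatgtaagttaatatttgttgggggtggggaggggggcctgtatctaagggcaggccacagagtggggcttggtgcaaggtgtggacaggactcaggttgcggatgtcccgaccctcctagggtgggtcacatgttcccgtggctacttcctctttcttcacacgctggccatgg
Lgr5: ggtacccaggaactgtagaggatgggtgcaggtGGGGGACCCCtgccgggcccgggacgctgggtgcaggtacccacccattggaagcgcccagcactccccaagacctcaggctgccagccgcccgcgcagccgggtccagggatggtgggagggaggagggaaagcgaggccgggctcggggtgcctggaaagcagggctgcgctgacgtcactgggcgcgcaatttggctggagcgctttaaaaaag
Both strands of all 10 windows were searched for CTTTGAT and its variant CTTTGTT, the E-box CAGCTG bound by ASCL2-type factors, and the NF-kB consensus. CTTTGAT or CTTTGTT was found in 1 of 10 windows (Olfm4) and in 7.6% of 21627 protein-coding genes' windows. The NF-kB consensus was found in 1 of 10 (Lgr5) and in 7.61% of all windows, and CAGCTG in 0 of 10 and 11.9% of all. A match is a run of letters and not a bound site, and sites further away, where many Wnt-responsive elements lie, were not searched.

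**Figure D1:**
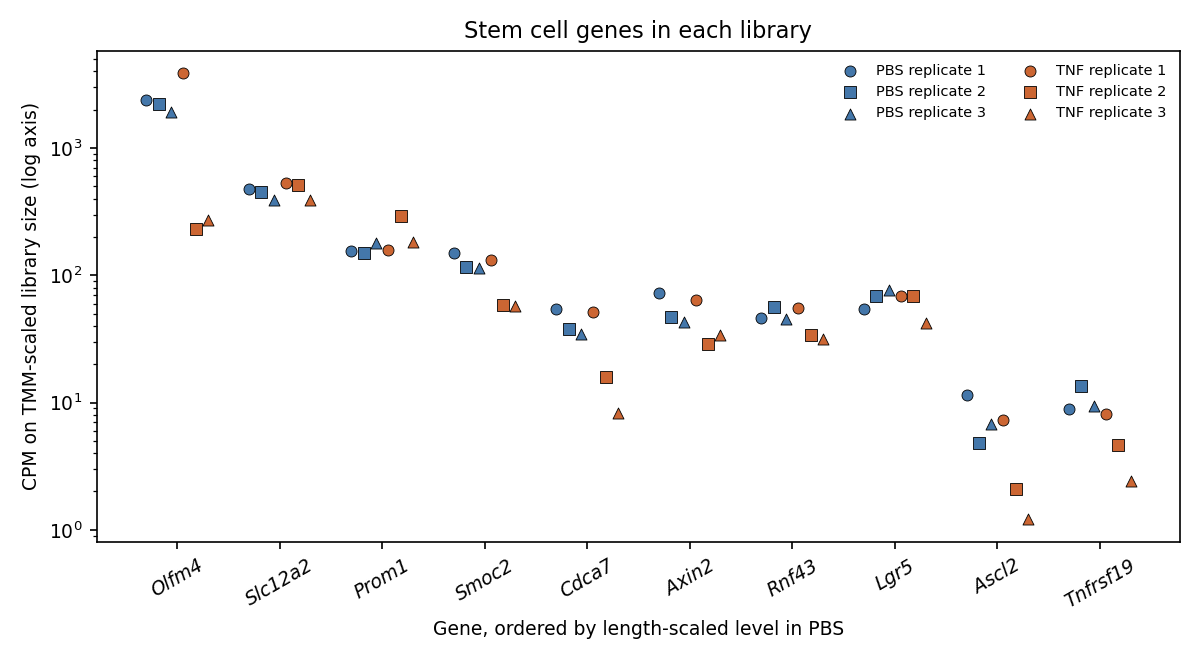
Level of each stem cell gene in each library, as CPM on library sizes scaled by the trimmed mean of M-values (log axis), with genes ordered by their length-scaled level in PBS. Circles, squares and triangles are replicates 1, 2 and 3. TNF replicates 2 and 3 lie below every PBS library for 7 of the 10 genes (21.6% of all genes). TNF replicate 1 lies within the PBS range for 7 of the 10 (45.2% of all genes).

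The comparison of TNF with PBS asked how the PC fraction differs 15 h after TNF. Lgr5 was close between the groups, at 66.5 ± 11.6 CPM after PBS (SD, n = 3) and 59.8 ± 15.3 CPM after TNF. Olfm4 spanned 1925 to 2374 CPM after PBS, and was at 233 and 272 CPM in TNF replicates 2 and 3 but at 3887 CPM in TNF replicate 1. With all 6 libraries, 0 of the 10 stem cell genes passed a Benjamini-Hochberg adjusted p of 0.05 (edgeR quasi-likelihood test), as did 0% of the 13026 genes tested. Of the 10 genes, 8 had a log2 fold change below 0 and 2 above, with a median of -0.47, where 6518 of all genes tested lay below 0. At an unadjusted p under 0.05 there was 1 of the 10 with edgeR (Tnfrsf19; 12.3% of all genes), 1 with DESeq2 (12.9% of all) and 4 with limma-voom (12.8% of all). At an adjusted p under 0.05, DESeq2 gave 0 of the 10 and 1.86% of all genes, and edgeR without a low-count filter 0 of the 10 and 2.94% of 23434 genes, 0.849% lower and 2.10% higher. Olfm4 had no p-value in DESeq2, so both DESeq2 counts leave it unassessed.

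The 3 TNF libraries did not behave alike. TNF replicates 2 and 3 were both below the PBS range for 7 of the 10 genes (Olfm4, Ascl2, Smoc2, Axin2, Tnfrsf19, Cdca7 and Rnf43), a pattern shown by 21.6% of all genes. TNF replicate 1 was within the PBS range for 7 of the 10 genes, against 45.2% of all genes. Groups of 3 did not overlap for 1 stem cell gene, Tnfrsf19, which was lower in TNF, where 7.82% of all genes were lower without overlap. None was higher without overlap, against 9.07% of all genes. With TNF replicate 1 left out, 5 of the 10 genes passed 5% in edgeR, all lower in TNF (Olfm4, Ascl2, Smoc2, Tnfrsf19 and Cdca7). In that fit 5.40% of 13660 genes were lower and 9.10% higher. Keeping all 6 libraries but weighting each by its spread in limma-voom also gave these 5 genes as lower, where 4.47% of all genes were lower and 7.06% higher. The fit without TNF replicate 1 has a TNF arm of 2 mice. That library was left out because its whole profile, these genes included, was unlike the other TNF libraries, so the fit describes the remaining libraries and is not independent support. The weights in limma-voom were estimated from these same profiles, so the weighted fit is not independent support either.

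**Figure D2:**
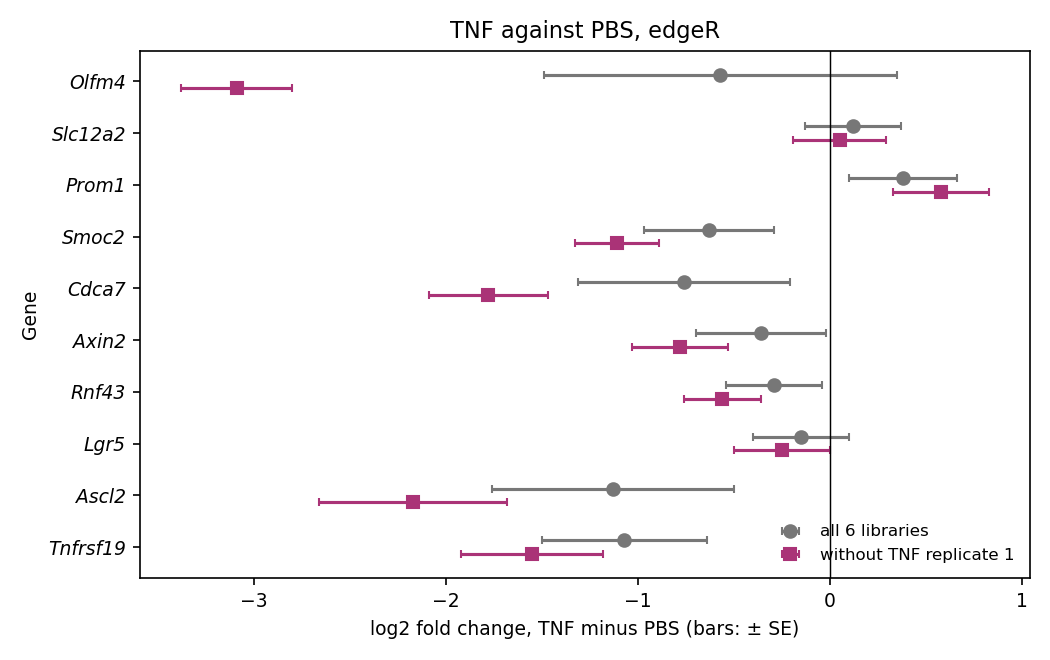
Log2 fold change of each stem cell gene, TNF minus PBS, from edgeR with bars of ± SE. Grey circles use all 6 libraries and purple squares leave out TNF replicate 1. Olfm4 moves from -0.57 to -3.09, while Lgr5, Slc12a2, Prom1, Axin2 and Rnf43 stay within 1 of 0 in both fits.

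Olfm4 (ENSMUSG00000022026, chromosome 14, 80221521 to 80260579, GRCm39) encodes a secreted glycoprotein that is abundant in crypt base cells and depends on Notch. Its level was 2374, 2224 and 1925 CPM after PBS, against 3887, 233 and 272 CPM after TNF. Thus TNF replicate 1 exceeded every PBS library, and the other TNF libraries were far below all of them. With all libraries, TNF minus PBS was -0.57 on the log2 scale (SE 0.92, edgeR adjusted p 0.833). It was -3.09 (SE 0.29, adjusted p 8.69e-05), or 8.50-fold lower, without TNF replicate 1. DESeq2 returned no p-value for Olfm4.

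Smoc2 (ENSMUSG00000023886, chromosome 17, 14499735 to 14625074), a secreted calcium-binding matrix protein, had 150, 116 and 115 CPM after PBS and 131, 58.5 and 57.3 CPM after TNF. TNF replicate 1 was inside the PBS range and the others about level with each other below it. TNF minus PBS was -0.63 on the log2 scale (SE 0.34, edgeR adjusted p 0.479), and -1.11 (SE 0.22, adjusted p 0.00596) without TNF replicate 1. On unscaled CPM, where TNF replicate 1 had 105 CPM against a PBS minimum of 123 CPM, Smoc2 also did not overlap between groups (11.2% of all genes were lower without overlap on that scale).

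Lgr5 (ENSMUSG00000020140, chromosome 10, 115286216 to 115423685) is the R-spondin receptor that defines these stem cells. It had 54.0, 68.9 and 76.8 CPM after PBS and 69.0, 68.3 and 42.2 CPM after TNF. Of the TNF libraries, only replicate 3 was outside the PBS range. TNF minus PBS was -0.15 on the log2 scale (SE 0.25, edgeR adjusted p 0.838), and -0.25 (SE 0.25, adjusted p 0.571) without TNF replicate 1. Its direction turned without TNF replicate 3 (0.05).

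Rnf43 (ENSMUSG00000034177, chromosome 11, 87553548 to 87626377), the ubiquitin ligase that opposes LGR5 action, had 45.8, 56.5 and 45.3 CPM after PBS and 55.5, 34.1 and 31.6 CPM after TNF (-0.29 on the log2 scale, with an SE of 0.25 and an edgeR adjusted p of 0.676). Axin2 (ENSMUSG00000000142, chromosome 11, 108811169 to 108841609), a scaffold of the beta-catenin destruction complex and a direct Wnt target, had 73.1, 46.8 and 42.6 CPM after PBS and 64.2, 28.8 and 33.7 CPM after TNF (-0.36 on the log2 scale, with an SE of 0.34 and an adjusted p of 0.697). For both genes, TNF replicates 2 and 3 lay below the PBS range and TNF replicate 1 within it. Neither passed 5% without TNF replicate 1, with log2 fold changes of -0.56 for Rnf43 (adjusted p 0.0834) and -0.78 for Axin2 (adjusted p 0.0640).

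Tnfrsf19 (ENSMUSG00000060548, chromosome 14, 61201283 to 61284366), also called Troy, is a Wnt-induced member of the TNF receptor family. It had 8.94, 13.4 and 9.33 CPM after PBS and 8.07, 4.60 and 2.42 CPM after TNF. All TNF libraries were below all PBS libraries, although TNF replicate 1 was close to the PBS minimum. TNF minus PBS was -1.07 on the log2 scale (SE 0.43, edgeR adjusted p 0.368), and -1.55 (SE 0.37, adjusted p 0.0185) without TNF replicate 1.

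Ascl2 (ENSMUSG00000009248, chromosome 7, 142520564 to 142523006) had 11.5, 4.81 and 6.76 CPM after PBS and 7.31, 2.10 and 1.21 CPM after TNF. PBS replicate 1 was the highest library, and TNF replicates 2 and 3 were the lowest. TNF minus PBS was -1.13 on the log2 scale (SE 0.63, edgeR adjusted p 0.496), and -2.17 (SE 0.49, adjusted p 0.0137) without TNF replicate 1. Cdca7 (ENSMUSG00000055612, chromosome 2, 72306341 to 72317240), a MYC-responsive gene of dividing cells, had 54.6, 37.9 and 34.4 CPM after PBS and 51.1, 15.8 and 8.21 CPM after TNF. Here too the ranges overlapped through TNF replicate 1 alone. TNF minus PBS was -0.76 on the log2 scale (SE 0.55, edgeR adjusted p 0.603), and -1.78 (SE 0.31, adjusted p 0.00333) without TNF replicate 1.

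Slc12a2 (ENSMUSG00000024597, chromosome 18, 58011164 to 58080812), the basolateral cotransporter that loads crypt cells with chloride, had 481, 450 and 388 CPM after PBS and 533, 510 and 390 CPM after TNF (0.12 on the log2 scale, with an SE of 0.25 and an edgeR adjusted p of 0.872). No TNF library was below the PBS range. Its direction turned without PBS replicate 3 (-0.0049). Prom1 (ENSMUSG00000029086, chromosome 5, 44150962 to 44259395), the CD133 antigen, which crypt cells beyond the stem cells also carry, had 156, 150 and 179 CPM after PBS and 157, 292 and 183 CPM after TNF (0.38 on the log2 scale, with an SE of 0.28 and an adjusted p of 0.599). For Prom1, TNF replicates 2 and 3 were above every PBS library, as for 24.1% of all genes. On unscaled CPM, TNF replicate 3 (167 CPM) lay inside the PBS range of Prom1 (149 to 192 CPM). Without TNF replicate 1 the log2 fold changes were 0.05 for Slc12a2 (adjusted p 0.913) and 0.58 for Prom1 (adjusted p 0.148).

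Ratios between members do not depend on how libraries are scaled. Their size depends on the exon lengths used, which are the same in every library. Per length of all annotated exons, Olfm4 was 151, 111 and 86.2 times Lgr5 in PBS replicates 1 to 3. It was 194, 11.7 and 22.2 times Lgr5 in TNF replicates 1 to 3. The ratio of Prom1 to Lgr5 ran the other way, at 3.26 ± 0.492 in PBS (SD, n = 3) and 3.00, 5.66 and 5.74 in TNF replicates 1 to 3. Relative to Lgr5, Cdca7 was 2.43, 1.32 and 1.08 in PBS and 1.78, 0.555 and 0.467 in TNF. The ratios of Olfm4, Ascl2, Smoc2, Tnfrsf19 and Cdca7 to Lgr5 were below, and that of Prom1 above, the PBS range in both TNF replicates 2 and 3. Those of Slc12a2, Axin2 and Rnf43 lay inside the PBS range in 1 of them. In TNF replicate 1, the ratio was outside the PBS range for Olfm4, where it was above, and for Tnfrsf19, where it was below (0.161 against 0.167 to 0.268).

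The 10 genes summed to 3133 ± 295 CPM in PBS (SD, n = 3) and to 4963, 1247 and 1022 CPM in TNF replicates 1 to 3. Olfm4 made up 68.2% to 70.2% of that sum in PBS, and 78.3%, 18.6% and 26.6% in TNF replicates 1 to 3. Without Olfm4 the other 9 genes summed to 959 ± 69.6 CPM in PBS and to 1076, 1015 and 750 CPM in TNF, with Slc12a2 and Prom1 the most abundant of them. The sum over the list thus mainly reads Olfm4.

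**Figure D3:**
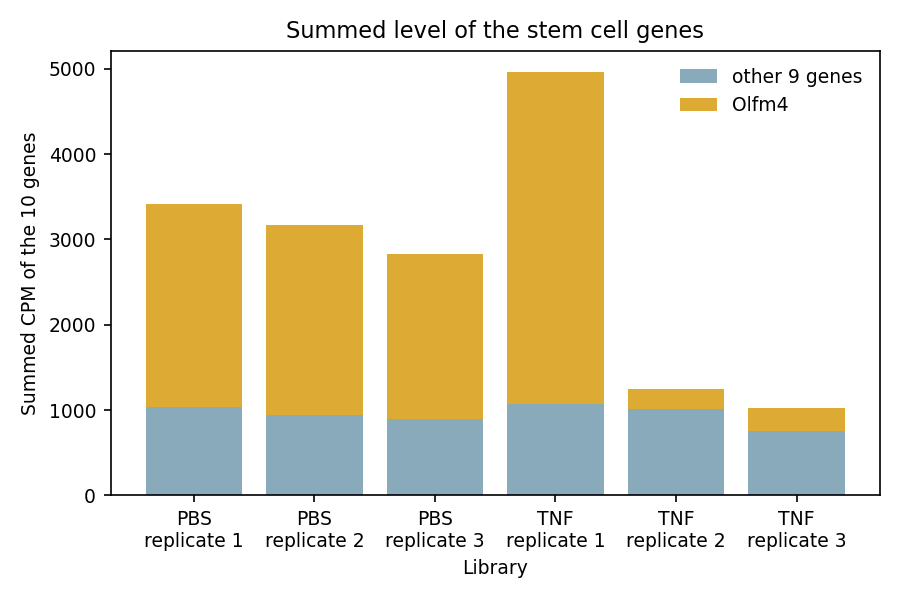
Summed CPM of the 10 stem cell genes in each library, with Olfm4 in yellow and the other 9 genes in blue. The total is 4963 CPM in TNF replicate 1 and 1247 and 1022 CPM in TNF replicates 2 and 3, against 2823 to 3409 CPM in PBS, and the part without Olfm4 stays between 750 and 1076 CPM.

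Further lists placed the 10 genes among their pathways and neighbours. With all 6 libraries and the low-count filter, 0 members of any of them passed 5% in edgeR. Without that filter, 4 of 24 proliferation genes were lower at 5%. In that fit, 1 of 30 Wnt pathway genes and 1 of 18 further stem cell genes were higher, and 0 of 21 Notch pathway genes passed. Of all 23434 genes, 0.849% were lower and 2.10% higher there. With the filter, 4 of 28 Wnt pathway genes and 0 of 18 Notch pathway genes had an unadjusted p under 0.05. So did 3 of 18 further stem cell genes, 3 of 24 proliferation genes and 12.3% of all genes. All counts at 5%, medians, log2 fold changes and adjusted p-values of these lists below leave out TNF replicate 1 unless all libraries are named, and the counts are read against 5.40% lower and 9.10% higher over all genes.

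Among Wnt pathway genes other than the members, 2 of 29 were lower (Wnt3 and Ccnd1) and 2 higher (Lrp5 and Ctnnb1), with a median log2 fold change of 0.07. Wnt3, the Wnt ligand made by PCs, had 122, 74.1 and 77.5 CPM after PBS and 75.6, 51.2 and 37.0 CPM after TNF (-1.03 on the log2 scale, with an SE of 0.27 and an edgeR adjusted p of 0.0247, against -0.74 and 0.384 with all libraries). Ctnnb1, which encodes beta-catenin, had 375, 332 and 376 CPM after PBS and 353, 694 and 692 CPM after TNF (0.96 on the log2 scale, with an SE of 0.22 and an adjusted p of 0.0157, against 0.68 and 0.415 with all libraries). Lrp5, the Wnt coreceptor, had 58.4, 57.6 and 48.8 CPM after PBS and 47.2, 145 and 123 CPM after TNF. The cyclin gene Ccnd1 had 45.3, 26.4 and 27.9 CPM after PBS and 34.2, 10.6 and 12.3 CPM after TNF. Of the genes with the highest mean TPM in this list, Lgr4, a relative of Lgr5 (log2 fold change 0.16, adjusted p 0.729), and Sox9, a transcription factor of PCs and stem cells (-0.29, adjusted p 0.490), did not pass.

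Among Notch pathway genes, 4 of 18 were lower and 0 higher. They were Dll4, a ligand on PCs, the receptors Notch1 and Notch2, and the target gene Hes1. Hes1 had 26.3, 18.1 and 15.9 CPM after PBS and 29.6, 8.27 and 8.86 CPM after TNF, so that TNF replicate 1 was above the PBS range, as for Olfm4 (-1.21 on the log2 scale, with an SE of 0.27 and an edgeR adjusted p of 0.0131, against -0.37 and 0.786 with all libraries). Dll4 had 36.3, 27.6 and 29.4 CPM after PBS and 35.5, 16.6 and 17.6 CPM after TNF (log2 fold change -0.84, adjusted p 0.0232, against -0.42 and 0.609 with all libraries). Among the genes with the highest mean TPM in the list, the secretase gene Ncstn (0.48, adjusted p 0.168) and the protease gene Adam10 (-0.01, adjusted p 0.989) did not pass.

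Further genes used as stem cell markers gave 7 lower and 1 higher of 18. Clca3b, which had the highest mean CPM of those that passed, had 388, 303 and 275 CPM after PBS and 459, 71.0 and 42.4 CPM after TNF (-2.48 on the log2 scale, with an SE of 0.30 and an edgeR adjusted p of 3.49e-04, against -0.76 and 0.713 with all libraries). The other lower genes were Kcnq1, Aqp4, Phlda1, Esrrg and Nrn1, with log2 fold changes from -0.78 (Phlda1) to -2.42 (Nrn1), and Slc14a1, a urea transporter gene that had 5.48, 3.74 and 4.26 CPM after PBS and 8.50, 0.196 and 0 CPM after TNF. The higher gene was Igfbp4, an inhibitor of insulin-like growth factors, with 21.3, 17.4 and 15.0 CPM after PBS and 27.9, 112 and 64.7 CPM after TNF (2.32 on the log2 scale, with an SE of 0.26 and an adjusted p of 2.19e-04, against 1.93 and 0.270 with all libraries). Igfbp4 also passed with all libraries in DESeq2, in which 1.58% of all genes were higher at 5% and 0.276% lower. Hopx, the gene of the list with the highest mean TPM, had a log2 fold change of 0.00 (adjusted p 1.00), and of 0.15 with all libraries.

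Proliferation genes were low in the same libraries as the stem cell genes. Of 24, 12 were lower and 0 higher, with a median log2 fold change of -1.28 (-0.55 with all libraries). Those lower were Mki67, Top2a, the replication helicase genes Mcm5, Mcm6 and Mcm7, the mitotic genes Birc5, Cdk1, Ccnb2 and Ccna2, and Stmn1, Hells and Tk1. Mki67, the classic marker of cycling cells, had 60.1, 39.5 and 45.9 CPM after PBS and 39.1, 16.1 and 18.7 CPM after TNF (-1.46 on the log2 scale, with an SE of 0.23 and an edgeR adjusted p of 0.00204, against -0.98 and 0.325 with all libraries). Top2a had 141, 78.9 and 62.7 CPM after PBS and 99.3, 24.8 and 23.6 CPM after TNF (-1.94 on the log2 scale, with an SE of 0.32 and an adjusted p of 0.00250, against -0.94 and 0.515 with all libraries). Pcna, the sliding clamp of replication and the gene of the list with the highest mean TPM, had 43.6, 28.6 and 39.9 CPM after PBS and 48.1, 34.7 and 50.0 CPM after TNF (log2 fold change 0.20, adjusted p 0.643, against 0.24 and 0.712 with all libraries).

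**Figure D4:**
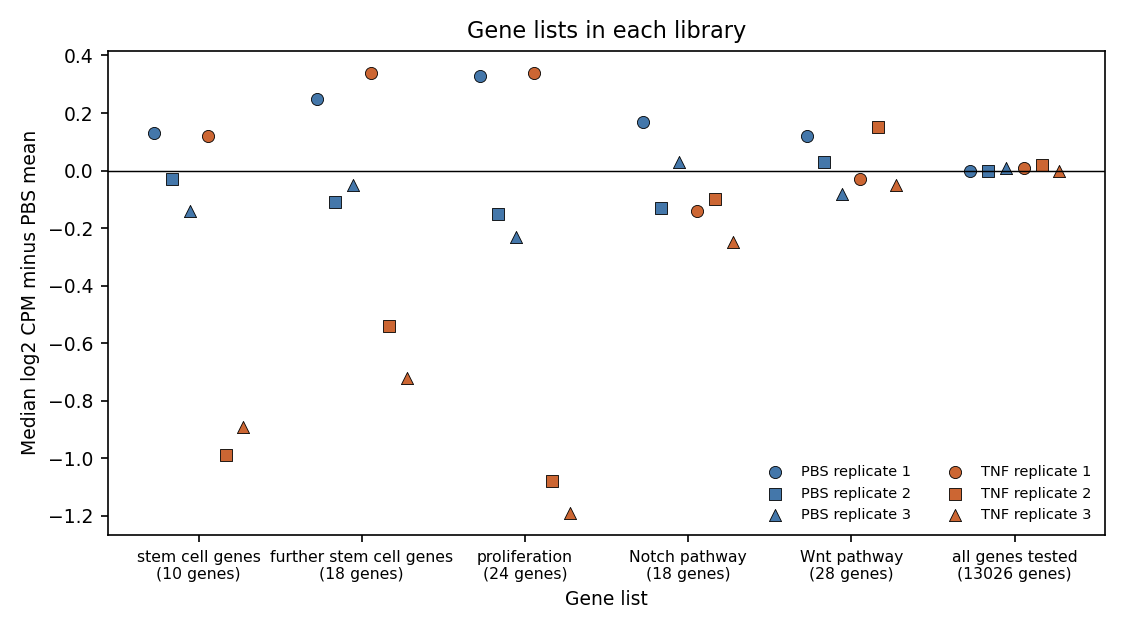
Median over each gene list of log2 CPM minus its PBS mean, per library. TNF replicates 2 and 3 lie at -0.99 and -0.89 for the stem cell genes and at -1.08 and -1.19 for proliferation genes, TNF replicate 1 lies at 0.12 and 0.34, and the Wnt pathway list stays between -0.08 and 0.15 in all libraries.

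Markers of other epithelial cells differed between the same libraries. The 14 enterocyte genes summed to 418 to 494 CPM in PBS and to 445, 161 and 117 CPM in TNF replicates 1 to 3, and 9 of 14 were lower without TNF replicate 1. Anpep, a brush border peptidase gene and the one with the highest mean CPM, had 195, 110 and 79.0 CPM after PBS and 93.1, 56.0 and 36.7 CPM after TNF. The 10 goblet cell genes, led in CPM by Spink4 and Agr2, summed to 12514 to 13804 CPM in PBS and to 16001, 7966 and 12143 CPM in TNF, with 6 of 10 lower. Of the 16 PC markers, 4 were lower (Clps, Habp2, Pnliprp2 and Guca2a) and 1 higher (Nupr1), while Lyz1 had a log2 fold change of 0.05 (edgeR adjusted p 0.950) and Defa24 of -0.36 (adjusted p 0.613). Tuft cell genes, led in CPM by Trpm5 and Dclk1, ran differently, with sums of 499, 1418 and 1754 CPM after PBS and 619, 1200 and 665 CPM after TNF, and 0 of 10 passed (edgeR, with 0 at an unadjusted p under 0.05). The part of these cell types in the stem cell gene values was not tested, and whether stem cell transcripts came from stem cells sorted along with PCs or from PCs themselves cannot be told apart here.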

How the data were processed

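RNA from sorted PCs of 6 mice (3 PBS, 3 TNF) was sequenced with single-end reads. The authors deposited 1 table of raw counts per Ensembl gene. The submitters' processing notes name Trimmomatic 0.39, STAR 2.7.10a, FastQC, DESeq2 and build mm39. The annotation release, strand setting and treatment of shared reads are not stated in any source used, so counts of overlapping genes are uncertain. Smoc2, Rnf43 and Prom1 overlap non-coding genes on the same strand with 25 to 100 counts per library, and Lgr5 a gene on the opposite strand with at most 15.

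Symbols, positions and exon lengths came from GENCODE M39 on GRCm39 (54749 identifiers matched, and the others held 0.0193% of counts). Groups came from the labels. The filterByExpr function kept genes with a minimum count of 10 (minimum total 15), which edgeR 4.0.16 in R 4.3.3 compared with the trimmed mean of M-values (TMM), a two-sided quasi-likelihood test with group as the only term, and adjustment over all genes tested. The SE was the size of the log2 fold change over the root of its F value. CPM use TMM-scaled library sizes (factors 0.798, for TNF replicate 1, to 1.20). The fit was tested on simulated data. No libraries of a group were duplicates (chi-square per degree of freedom of 27.3 or more). The limit for a count of 0 is 3 counts and covers counting error only.

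The members, the 13 gene lists, the tests and the alternatives were chosen with earlier results of these data known. The text names all 10 members, list genes that passed or were among the 3 most abundant per length, the 2 most abundant markers of each cell type, markers with no count, and the 5 genes most like Lgr5 and Olfm4. Some genes that this rule would name are not reported here. Since 0 genes passed in edgeR with all libraries and the low-count filter, list genes that passed without TNF replicate 1 were named after their values were seen. Alternatives covered scaling, filters, DESeq2 1.42.0, limma-voom (limma 3.58.1) with and without sample weights, a 1% threshold, the replicate number as a block, and leaving out each library.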

Additional observations from a re-analysis of the deposited data

How the results depend on the processing

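Of 160 values of the 10 stem cell genes under alternatives, 158 kept their direction. The 2 that turned were Lgr5 without TNF replicate 3 (0.05, in a range of -0.29 to 0.05 over the fits with 1 library left out) and Slc12a2 without PBS replicate 3 (-0.0049, in a range of -0.0049 to 0.25). The count of stem cell genes past 5%, 0 with edgeR and all libraries, was 5 with sample weights in limma-voom and 0 to 5 when 1 library was left out, the highest without TNF replicate 1. Both counts of 5 hold Olfm4, Ascl2, Smoc2, Tnfrsf19 and Cdca7. Over all genes the count was 690 with no low-count filter, 242 with DESeq2, 1501 with sample weights and 0 to 1980 with 1 library left out. In the same order, without a filter, with DESeq2, with sample weights and over the fits with 1 library left out, there were 1, 0, 5 and 0 to 4 Wnt pathway genes, 0, 0, 1 and 0 to 4 Notch pathway genes, 1, 1, 8 and 0 to 8 further stem cell genes, and 4, 0, 12 and 0 to 12 proliferation genes. The causes of these moves were not tested, beyond the number of genes or libraries that each setting leaves.

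Counts at 5% for these lists stayed at 0 with other scalings, a mean CPM of at least 5, limma-voom without weights and a 1% threshold. Scaling by library size alone put the all-gene median at -0.11 (TMM, 0.00). The difference of the summed level, TNF minus PBS, was -722 CPM and ranged from -1998 CPM without TNF replicate 1 to -27.8 CPM without TNF replicate 3. Same-numbered PBS and TNF libraries did not deviate together (r of -0.0128, -0.0748 and 0.0311 across genes). This check cannot exclude pairing, because deviations in the TNF group are taken from a mean that includes TNF replicate 1. With the replicate number as a block, 0 genes passed, 0 stem cell genes among them, and Olfm4 had a log2 fold change of -1.94.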

Other observations

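The 8 genes of early secretory cells summed to 325 to 468 CPM in PBS and 396 to 428 CPM in TNF, a sum carried by Atoh1 and Foxa3. The median of their log2 CPM minus the PBS mean was 0.19, -0.12 and -0.87 in TNF replicates 1 to 3. Atoh1, the transcription factor that starts secretory fate, had 127, 76.5 and 77.7 CPM after PBS and 95.3, 166 and 155 CPM after TNF (0.57 on the log2 scale, with an SE of 0.30 and an edgeR adjusted p of 0.472, against 0.80 and 0.0565 without TNF replicate 1). Foxa3, a forkhead factor of secretory cells, had 161, 109 and 123 CPM after PBS and 144, 95.3 and 90.6 CPM after TNF. Without TNF replicate 1, Gfi1 was higher and Sox4 lower at 5%, and the median log2 fold change of the 8 genes was -0.59. Enteroendocrine genes, led by Sct and Chgb, summed to 58.9 to 196 CPM in PBS and 50.7 to 161 CPM in TNF. Immune genes summed to 21.6 to 54 CPM in PBS and 34.5 to 44 CPM in TNF, most of it from Lyz2 and Ptprc.

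Profiles over the 6 libraries were compared by the root mean square difference of centred log2 CPM, over the 9532 genes whose log2 CPM averaged 2 or more. The 5 genes closest to Olfm4 were Cyp2c68 (0.16), Gvin5 (0.18), Cps1 (0.29), Fabp2 (0.29) and Prelp (0.30). Cyp2c68 had 58.2, 48.9 and 49.6 CPM after PBS and 78.8, 6.31 and 7.17 CPM after TNF. Cps1, the first enzyme of the urea cycle, had 454, 351 and 372 CPM after PBS and 514, 54.7 and 38.7 CPM after TNF. The 5 genes closest to Lgr5 were Arhgap11a (0.06), Zfp27 (0.09), 6030458C11Rik (0.10), Styk1 (0.10) and Mysm1 (0.10), all of which vary little. None of the other 9 stem cell genes was among the 5 closest to either.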
